A study of Mus musculus with 9 samples.

Results

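Axon guidance ligands and receptors were examined by RNA sequencing in cardiosphere-derived cells (CDCs) grown from mouse epicardium. The 65 genes are all protein-coding genes of the semaphorin, plexin, ephrin, Eph, Slit, Robo, netrin and Unc5 families by gene symbol, of 54532 genes in the deposited table. They comprise 20 semaphorins, 9 plexins, 8 ephrins, 14 Eph receptors, 3 Slits, 4 Robo receptors, 3 netrins and 4 Unc5 receptors. The rule uses gene symbols and no measured value, although the families were proposed with earlier results of these data known.

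Axon guidance molecules were named for steering growing nerve fibres, and most of them also act in cell migration, vessel patterning and heart development. Semaphorins signal through plexins, with neuropilins as co-receptors for most secreted class 3 members. Ephrins are tethered to the cell surface and bind Eph receptor tyrosine kinases on the neighbouring cell, so that both cells can receive a signal. Slits are secreted and repel cells through Robo receptors, and netrins signal through Dcc, neogenin and Unc5 receptors.

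All 9 libraries came from C57BL/6 mice and 3 libraries were made for each group. pECDCs were primary CDCs from explants of the heart ventricle, without immortalization or inhibitor (P0 in the labels, whereas the study's culture methods give passage 3). iECDCs were CDCs carrying a lentiviral hTERT transgene (the human telomerase protein), selected with puromycin after infection and taken at passage 30. The third group is labelled as iECDCs at passage 30 given SB431542, which blocks the kinase of the TGF-β type I receptor, for 3 days, while the study's methods list, among the material sequenced, an epithelial clone of treated pECDCs and no SB431542-treated iECDCs, so the source of the treated cells is not settled. Cdkn2a, read after its values were known, had 550, 407 and 562 counts in the pECDC libraries and at most 1 count in each iECDC and treated library. pECDCs and iECDCs also differ in passage, so immortalization and time in culture cannot be told apart. The labels do not say whether the 3 libraries of a group came from separate cultures, and p-values therefore measure the spread between these libraries only.

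Each pECDC library held 19462912 to 23951392 counts, each iECDC library 16568306 to 20204216 and each treated library 17063137 to 20849975, and the 65 genes took 0.315% to 0.413% of them. Libraries 1 and 2 of the iECDCs lay close together and library 3 stood apart (chi-square per degree of freedom of 4.61 between libraries 1 and 2, and of 30.8 and 24.9 against library 3). Treated library 2 stood further apart, with 71.5 and 70.3 against libraries 1 and 3, compared with 3.79 between those. On a scale with the iECDC mean at 0 and the mean of treated libraries 1 and 3 at 1, treated library 2 lay at a median of 0.499 over 2244 genes and of 0.476 over 25 of the axon guidance genes. All were called between iECDCs and treated libraries 1 and 3, with a log2 fold change of at least 1 in size. They also passed the filter on low counts over all 9 libraries. The genes were thus picked for a large difference between the 2 references. Of these 25, 21 lay between the 2 references, Epha7 (-0.07) lay beyond the iECDC mean, and Unc5c, Sema4f and Robo2 lay at or beyond the other treated libraries. Axon guidance genes whose call changes without one of these libraries are named with each comparison. The summed FPKM of 8 TGF-β target genes was 1703 to 1753 in the primary cells and 2176 to 2558 in the iECDCs, against 132, 388 and 147 in treated libraries 1, 2 and 3. Acta2, the smooth muscle actin gene, stood at 812, 848 and 1898 FPKM in the iECDC libraries, with library 3 the highest, and at 137, 322 and 137 in treated libraries (-2.56 ± 0.45, adjusted p = 0.00581, against iECDCs). Of 5 smooth muscle markers Myh11 was the only other one called lower there (-2.32 ± 0.35, adjusted p = 0.0034).

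As to the cells themselves, of 7 mesenchymal markers Thy1, Vim, Col1a1, Col1a2 and Eng were at 62.4 FPKM or more in every library. Pdgfra was at 10.3 to 22.2 FPKM, and Ly6a at 3.93 to 7.11 in pECDCs and iECDCs. In treated libraries Vim was called lower than in iECDCs (-0.64 ± 0.15, adjusted p = 0.0169) and Pdgfra higher (0.96 ± 0.12, adjusted p = 0.0018). Between iECDCs and pECDCs 2 of the 7 were higher and 2 lower. Tbx18, a transcription factor of the epicardium, was at 19, 19.5 and 20.3 FPKM in pECDCs. The epicardial gene Wt1 was at most 0.396 FPKM in any library, with 2, 2 and 0 counts in iECDCs and 43, 14 and 39 in treated libraries. Tbx18 was at 25, 23.2 and 18.8 FPKM in iECDCs and 39.7, 22.9 and 41.8 in treated libraries. It was called higher in treated libraries than in pECDCs (0.84 ± 0.21, adjusted p = 0.0228). Against iECDCs it was not called (0.65 ± 0.23, adjusted p = 0.0626), except without treated library 2 (0.87, adjusted p = 0.000429). Of 6 epicardial markers Wt1, Upk3b (3.45 ± 0.35, adjusted p = 0.000912) and Tcf21 (1.47 ± 0.26, adjusted p = 0.00565) were called higher in treated libraries than in iECDCs. Msln was not tested, and Aldh1a2 was called lower in treated libraries than in iECDCs (-2.68 ± 0.31, adjusted p = 0.00138). Ly6a, which encodes the CDC surface marker Sca-1, was also higher there (2.25 ± 0.32, adjusted p = 0.00262). The part of these marker changes in the results that follow was not tested. Of 6 epithelial markers, Cdh1, Epcam, Krt8 and Krt18 were at most 0.14 FPKM in every library, the treated ones included, while Krt19 and Tjp1 were expressed. The summed FPKM of 7 endothelial markers was 0.165 or less in every library. Among 6 neuronal markers Tubb3 was the highest, at 32.7, 34.9 and 37.4 in pECDCs, 20.9, 21.5 and 36.4 in iECDCs and 72.9, 67.7 and 67.6 in treated libraries (1.42 ± 0.21, adjusted p = 0.00297, treated against iECDCs). Map2 reached at most 1.21 FPKM and went the other way, lower in treated libraries than in iECDCs (-1.33 ± 0.19, adjusted p = 0.00269). It was higher in iECDCs than in pECDCs (1.04 ± 0.15, adjusted p = 0.00205), where Tubb3 was not called. Snap25 and Rbfox3 were at or near 0.

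The level of each gene is given as FPKM (fragments per kilobase of gene length, scaled to the library's mapped fragments). Ranks and shares between genes therefore rest on the gene lengths of the deposited annotation, such as 25433 bases for Slit2 and 6067 for Slit3. Of the 65 genes, 37 reached a mean FPKM of 1 in some group, 8 reached 10 and 3 reached 100. In pECDCs the order of mean FPKM was Unc5b (124 ± 2.8, SD, n = 3), Plxnb2 (74.5 ± 0.601), Plxna1 (54.2 ± 3.21), Epha2 (45.7 ± 1.21), Efnb2 (32.9 ± 1.02), Ephb4 (20 ± 0.4), Slit3 (15.9 ± 0.964) and Sema3c (12.7 ± 0.34). No neighbours in this order overlapped in their 3 libraries. Unc5b, a netrin receptor that is also known from vascular patterning, ranked above 98.4% of protein-coding genes in pECDCs. In treated libraries Plxnb2 (119.8 ± 10.2) and Slit3 (108 ± 53.9) came first, followed by Unc5b (54.3 ± 34). The Slit3 libraries there spanned those of Unc5b in part and of Plxnb2 in full.

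**Figure D1:**
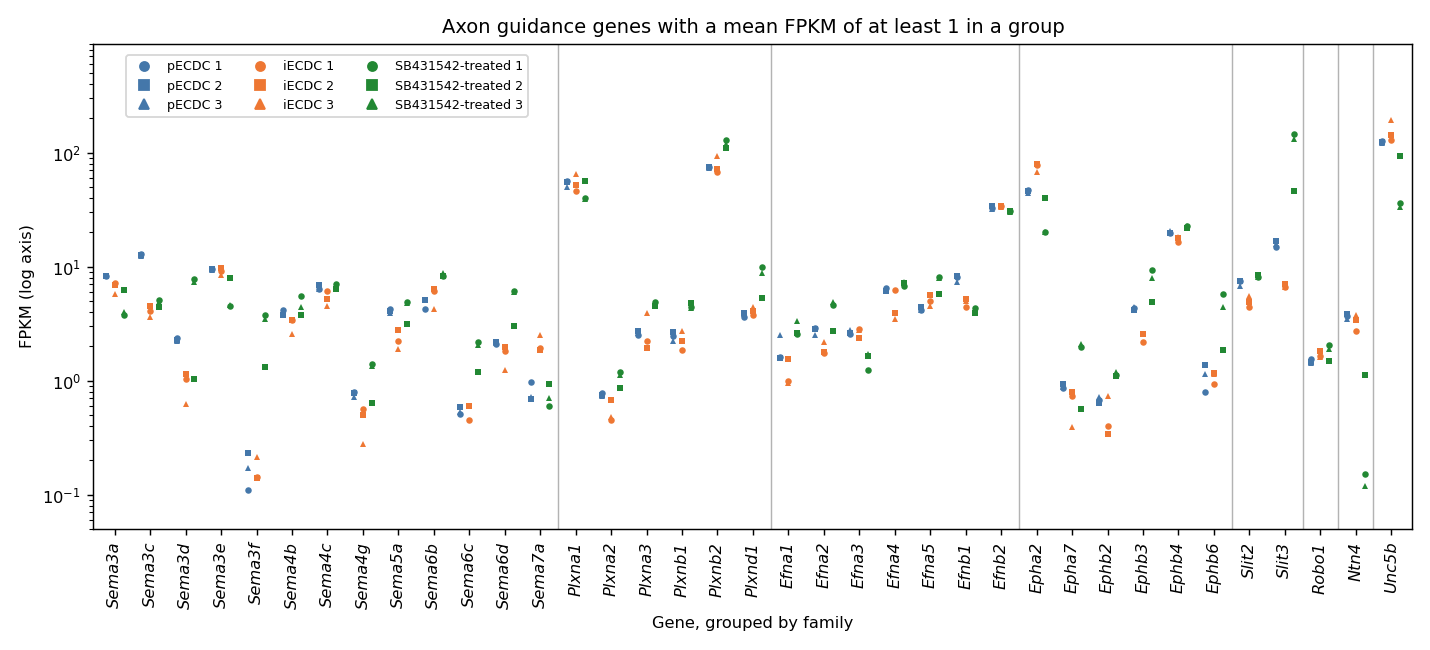
FPKM on a log axis of the 37 axon guidance genes with a mean of at least 1 in a group, with 1 symbol per library (blue, pECDC; orange, iECDC; green, SB431542-treated; circle, square and triangle for replicates 1, 2 and 3) and lines between families. Unc5b, Plxnb2, Plxna1, Epha2 and Efnb2 lie above 30 FPKM in pECDCs, and treated replicate 2 (green square) often lies between the iECDC libraries and the other treated libraries.

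Within most families 1 gene carried most of the FPKM. Unc5b held over 99% of the Unc5 receptor sum in every library. Epha2 held 95.9% to 96.7% of the EphA sum in pECDCs, 98.7% to 98.9% in iECDCs, and 88.8%, 97.7% and 88.7% in treated libraries 1, 2 and 3. Plxnb2, the receptor of class 4 semaphorins, and Plxna1 together made up most of the plexins. Efnb2 took about 80% of the B ephrins in pECDCs (79.8%, 79.8% and 80.4%) and 86.3% to 87.5% in the other groups. At the other end, 14 genes missed the filter on low counts in all 3 comparisons with all libraries. Ephb1, Robo4, Unc5d, Ntn5 and Sema5b had 0 counts in all 9 libraries, Epha10, Epha5, Epha6 and Epha8 had at most 2 counts in any library, Slit1 had at most 4, Plxnb3 at most 7, Plxnc1 at most 8, Sema3g at most 11 and Epha3 at most 24. Epha3, an Eph receptor that binds A ephrins, had 6, 2 and 5 counts in pECDCs, 0, 0 and 1 in iECDCs and 24, 3 and 21 in treated libraries, and without treated library 2 it entered the test and was called higher in treated cells than in iECDCs (adjusted p = 0.000255) and than in pECDCs (adjusted p = 3.02e-05). Robo4, the endothelial Robo, was among those at 0, as was the netrin receptor Dcc among the partner genes. A count of 0 in a library allows up to 3 counts, and this covers counting error only.

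Promoter sequences were taken from RefSeq on GRCm38.p6 for 56 of the 65 genes, as the 250 bases before each start. Those of 4 genes called between treated and iECDC libraries are printed for the stretch that also lies before the gene in the deposited annotation. They are Ephb3 and Plxnb2, which were higher in treated than in iECDC libraries, and Epha2 and Unc5b, which were lower. Capitals mark matches on either strand to AGAC, the core letters bound by SMAD proteins, or to CATTCC, the motif of TEAD factors. The windows are chr16:21204545-21204754 (plus strand), chr15:89180789-89181038 (minus strand), chr4:141300971-141301220 (plus strand) and chr10:60831582-60831831 (minus strand).
Ephb3: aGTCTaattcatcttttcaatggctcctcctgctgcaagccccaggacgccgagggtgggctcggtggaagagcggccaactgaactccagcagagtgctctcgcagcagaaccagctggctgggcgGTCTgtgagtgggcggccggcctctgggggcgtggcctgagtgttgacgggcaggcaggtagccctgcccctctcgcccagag
Plxnb2: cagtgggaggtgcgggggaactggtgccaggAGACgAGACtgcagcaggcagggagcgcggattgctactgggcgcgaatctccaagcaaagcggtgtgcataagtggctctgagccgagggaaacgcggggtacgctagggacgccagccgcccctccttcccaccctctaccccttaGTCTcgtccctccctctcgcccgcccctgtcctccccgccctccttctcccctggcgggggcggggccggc
Epha2: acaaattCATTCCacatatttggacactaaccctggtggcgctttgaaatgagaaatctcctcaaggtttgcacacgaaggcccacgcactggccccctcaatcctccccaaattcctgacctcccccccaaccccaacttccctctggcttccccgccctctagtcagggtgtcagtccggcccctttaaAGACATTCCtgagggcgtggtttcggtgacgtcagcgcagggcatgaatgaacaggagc
Unc5b: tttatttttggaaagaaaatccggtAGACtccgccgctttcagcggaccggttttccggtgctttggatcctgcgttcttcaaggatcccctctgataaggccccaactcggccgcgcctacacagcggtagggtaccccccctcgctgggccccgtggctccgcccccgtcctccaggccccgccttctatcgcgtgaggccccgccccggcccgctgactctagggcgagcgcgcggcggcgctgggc

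AGAC stood 2 times in the Ephb3 stretch, 3 times in that of Plxnb2 and 1 time each in those of Epha2 and Unc5b, and CATTCC stood 2 times in that of Epha2. The search also took in CAGACA, the longer SMAD element, within which those core letters lie. It further took in TGANTCA, the motif of AP-1, and the E-box CAGGTG of Snail and Zeb repressors. None of these longer elements stood in the stretches printed. Another Plxnb2 window (chr15:89173952-89174201), not printed since it lies within the gene in the deposited annotation, held 1 CAGGTG and 3 AGAC. The window of Slit3 (chr11:35121206-35121455), which is not printed, held 1 CAGACA, but most of it lies within the gene in the deposited annotation. Among genes lower in treated than in iECDC libraries, the window of Ntn4 also held 1 and a window of Efna3 held 3. Over all 32851 promoters of 250 bases, 82.9% held AGAC, 17.1% CAGACA, 6.75% TGANTCA, 12.6% CATTCC and 17.2% CAGGTG on either strand. Over the 72 promoters of the axon guidance genes these shares were 83.3%, 23.6%, 4.17%, 9.72% and 13.9%. CAGACA was in 28% of 25 promoters of genes that were higher in treated than in iECDC libraries and in 15.4% of 13 promoters of genes that were lower. For genes not called the share was 19.0% of 21 promoters, and for genes not tested it was the highest, 30.8% of 13. The median GC content was 64.2% in the axon guidance promoters and 52.4% in all. A match only describes these letters.

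The first comparison, iECDCs against pECDCs, asks how the immortalized cells at passage 30 differ from the primary cells. Of 50 axon guidance genes tested, 4 were higher and 12 lower in iECDCs (edgeR quasi-likelihood test, Benjamini-Hochberg adjusted p under 0.05), which is 32%, where 16.4% of all 13752 genes tested were called. By direction, 7.21% of all genes were higher and 9.21% lower. The median log2 fold change was -0.11 over the 50 genes and -0.0018 over all genes, and the median size was 0.389 against 0.174. The libraries of both groups did not overlap for 28 of the 50 genes, and 39.9% of all genes tested were separated in this way. Of 29 ligands tested 9 were lower and 2 higher, and of 21 receptors 3 were lower and 2 higher. Without iECDC library 3 the counts over all 50 were 8 higher and 21 lower, with 31.7% of all genes called, 12 lower and 4 higher among ligands and 9 lower and 4 higher among receptors.

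Sema3c, a secreted semaphorin needed for outflow tract formation in the heart, had 13, 12.6 and 12.4 FPKM in pECDC libraries and 4.06, 4.55 and 3.65 in iECDC libraries. The groups lay far apart, and the iECDC mean was 4.09 against 12.7 (log2 fold change -1.64 ± 0.09, adjusted p = 5.26e-06). Slit3, a secreted repellent, went from 14.8, 16.8 and 16 to 6.62, 7.03 and 6.66 FPKM. Every iECDC library lay under every pECDC library (-1.24 ± 0.07, adjusted p = 9.66e-06). Its relative Slit2, the classical Robo1 and Robo2 ligand, had 7.51, 7.45 and 6.82 in pECDCs and 4.48, 4.87 and 5.5 in iECDCs, again without overlap (-0.57 ± 0.08, adjusted p = 0.00227). Sema3d, a secreted semaphorin known from endothelial and neural crest cell guidance, had 2.37, 2.29 and 2.25 FPKM in pECDCs and 1.04, 1.15 and 0.628 in iECDCs, with iECDC library 3 the lowest (-1.30 ± 0.18, adjusted p = 0.00167). Sema3a, the prototype growth cone repellent, fell least, from 8.28, 8.32 and 8.3 to 7.16, 6.89 and 5.79 FPKM (-0.34 ± 0.08, adjusted p = 0.0246).

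The class 3 semaphorins summed to 33.5, 33.1 and 32.7 FPKM in the primary cells and to 21.6, 22.6 and 18.9 in the immortalized cells. The leading member was Sema3c in each pECDC library, with 37.8% to 39.0% of the sum, and Sema3e in each iECDC library, with 42.2% to 45.0%. Sema3e, a ligand of Plxnd1, was itself at 9.64, 9.64 and 9.45 and 9.12, 9.8 and 8.52 FPKM, and the difference did not pass the test (-0.08 ± 0.07, adjusted p = 0.458).

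**Figure D2:**
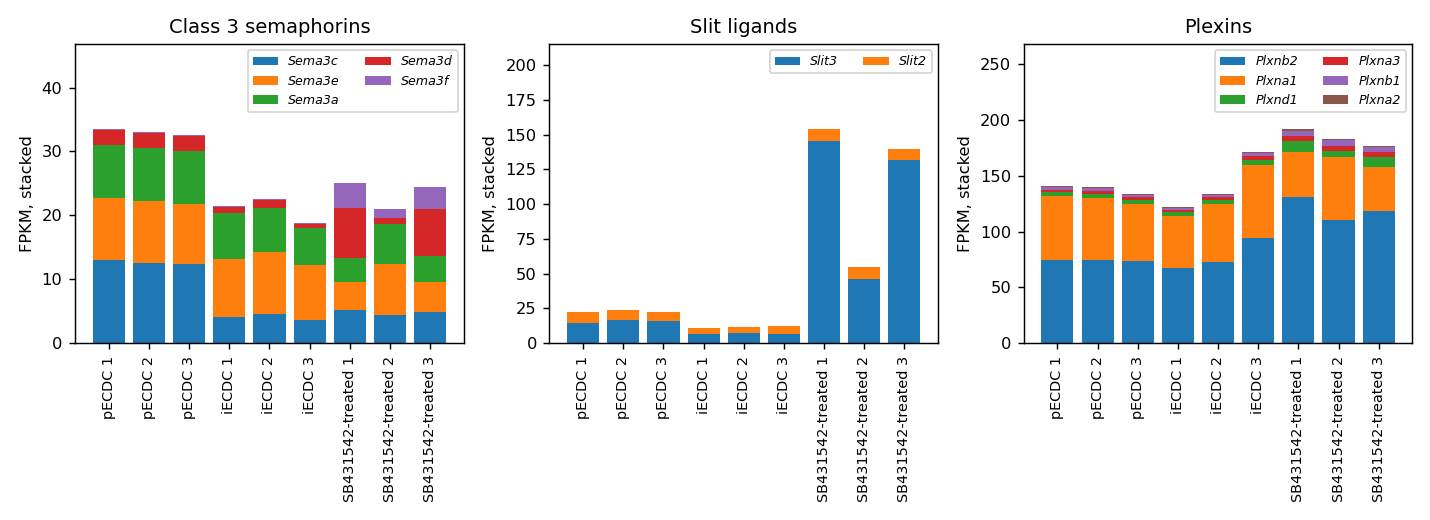
Stacked FPKM of class 3 semaphorins, Slits and plexins with a mean of at least 1 in a group, 1 bar per library. Sema3c (blue, left) shrinks from pECDCs to iECDCs, Sema3d (red, left) is largest in treated replicates 1 and 3, and Slit3 (blue, middle) rises to 46 to 146 FPKM in treated libraries.

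Membrane-bound ligands changed in both directions. Sema5a, a transmembrane semaphorin, had 4.28, 4.09 and 3.93 FPKM in pECDCs and 2.25, 2.81 and 1.9 in iECDCs, with no overlap (-0.84 ± 0.12, adjusted p = 0.00237). Efnb1, an ephrin mutated in craniofrontonasal syndrome, had 8.15, 8.35 and 7.41 in pECDCs and 4.45, 5.18 and 4.98 in iECDCs, also without overlap (-0.73 ± 0.09, adjusted p = 0.00101). Its neighbour in the family, Efnb2, which marks arterial endothelium, was at 32.9, 33.9 and 31.8 and 33.8, 34.5 and 33.5 FPKM. Those ranges overlapped and the test was not passed (0.03 ± 0.06, adjusted p = 0.742). Efna2 had 2.93, 2.85 and 2.51 FPKM in pECDCs and 1.77, 1.8 and 2.2 in iECDCs (-0.54 ± 0.15, adjusted p = 0.0366). Sema7a, a membrane-anchored semaphorin that binds integrin and plexin C1, went the other way, from 0.977, 0.685 and 0.714 to 1.95, 1.86 and 2.51 FPKM. All iECDC libraries lay above all pECDC libraries (1.38 ± 0.19, adjusted p = 0.00167).

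Among receptors, Epha2, an Eph receptor common in epithelia and tumours, had 46.9, 45.8 and 44.5 FPKM in pECDCs and 77.3, 79.1 and 67.8 in iECDCs. It was higher in all 3 iECDC libraries (0.69 ± 0.07, adjusted p = 0.000395). Ephb3, a receptor of B ephrins, went from 4.34, 4.18 and 4.48 to 2.2, 2.56 and 2.6 FPKM, without overlap (-0.84 ± 0.09, adjusted p = 0.000384). Ephb4, the receptor partner of Efnb2 in veins, was at 19.9, 19.7 and 20.5 and 16.6, 17.7 and 18.3 FPKM. Its iECDC libraries were all below the pECDC libraries, but the difference missed the threshold (-0.21 ± 0.06, adjusted p = 0.0504), and it was called without iECDC library 3 (-0.23, adjusted p = 0.00191). None of the 7 plexins tested was called with all libraries, but without iECDC library 3 Plxna1 (-0.16, adjusted p = 0.0391), Plxna2 (-0.44, adjusted p = 0.024), Plxna3 (-0.33, adjusted p = 0.00804) and Plxnb1 (-0.28, adjusted p = 0.0304) were called lower. For Plxna3 this turned the sign, from 0.02. Plxnb2 was at 75, 74.7 and 73.8 and 67.7, 72.7 and 94.3 FPKM, with iECDC library 3 above the rest, and its log2 fold change went from 0.06 to -0.10 without that library. Unc5b followed the same shape, with 126, 124 and 121 and 129, 142 and 193 FPKM (0.31 ± 0.13, adjusted p = 0.143), and was called higher without iECDC library 3 (0.12, adjusted p = 0.0395).

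The remaining calls were of genes under 1 FPKM in each group, for which counts are given. Epha4, a receptor that binds both ephrin classes, had 107, 120 and 118 counts in pECDCs and 7, 13 and 25 in iECDCs (-2.55 ± 0.37, adjusted p = 0.00222). Unc5a had 55, 37 and 42 and 9, 5 and 6 counts (-2.35 ± 0.28, adjusted p = 0.000693). Sema6a had 56, 33 and 40 and 22, 17 and 15 counts (-0.88 ± 0.24, adjusted p = 0.0344). Higher in iECDCs were Sema4f, with 25, 33 and 26 counts against 104, 59 and 57 (1.73 ± 0.25, adjusted p = 0.00205), and the Slit receptor Robo2, with 7, 3 and 2 against 13, 13 and 19 (2.25 ± 0.48, adjusted p = 0.0133). All 5 were separated without overlap, at depths where single libraries weigh heavily.

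Of the 16 calls, 12 held whichever library was left out. The exceptions kept their direction: Efna2 and Sema6a held only without iECDC library 3 and were lost without any other library (log2 fold change -0.64 to -0.48 and -0.96 to -0.71, adjusted p up to 0.153 and 0.156), Sema3a was lost without any one pECDC library (-0.40 to -0.25, up to 0.105), and Robo2 without pECDC library 2 or 3 (1.93 to 2.84, up to 0.0635).

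Without iECDC library 3, 13 further genes were called. Beside Ephb4, Unc5b and the 4 plexins these were Ephb2 (-0.87, adjusted p = 0.000164), Sema4b (-0.22, adjusted p = 0.0434), Sema4c (-0.22, adjusted p = 0.0366) and Sema4g (-0.52, adjusted p = 0.0438), which were lower in iECDCs. Robo1 (0.22, adjusted p = 0.0288), Efna5 (0.31, adjusted p = 0.00977) and Sema6b (0.36, adjusted p = 0.00519) were higher. Without iECDC library 1, 4 were gained (Sema4c, Sema4g and Efna4, which were lower, and Unc5b, which was higher), and without iECDC library 2 Plxna2 alone, which was lower.

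The second comparison, SB431542-treated cells against iECDCs, asks how blocking the TGF-β type I receptor changed these genes, if the labels give the cells correctly. Of 50 axon guidance genes tested, 23 were higher and 10 lower in treated libraries (edgeR, adjusted p under 0.05), or 66%, where 30% of all 13559 genes tested were called, 16% higher and 14% lower. The median log2 fold change was 0.55 over the 50 genes and 0.0014 over all genes, and the median size was 0.940 against 0.341. The libraries of the groups did not overlap for 39 of the 50, against 46.5% of all genes. Among ligands 14 of 30 tested were higher and 5 lower, and among receptors 9 of 20 were higher and 5 lower. Without treated library 2, 28 of 51 were higher and 12 lower, with 50.2% of all genes called. Without iECDC library 3, 19 of 52 were higher and 6 lower, with 25.4% of all genes called. In bulk RNA, a change in the share of cells that express a gene and a change in the RNA per cell cannot be told apart.

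**Figure D3:**
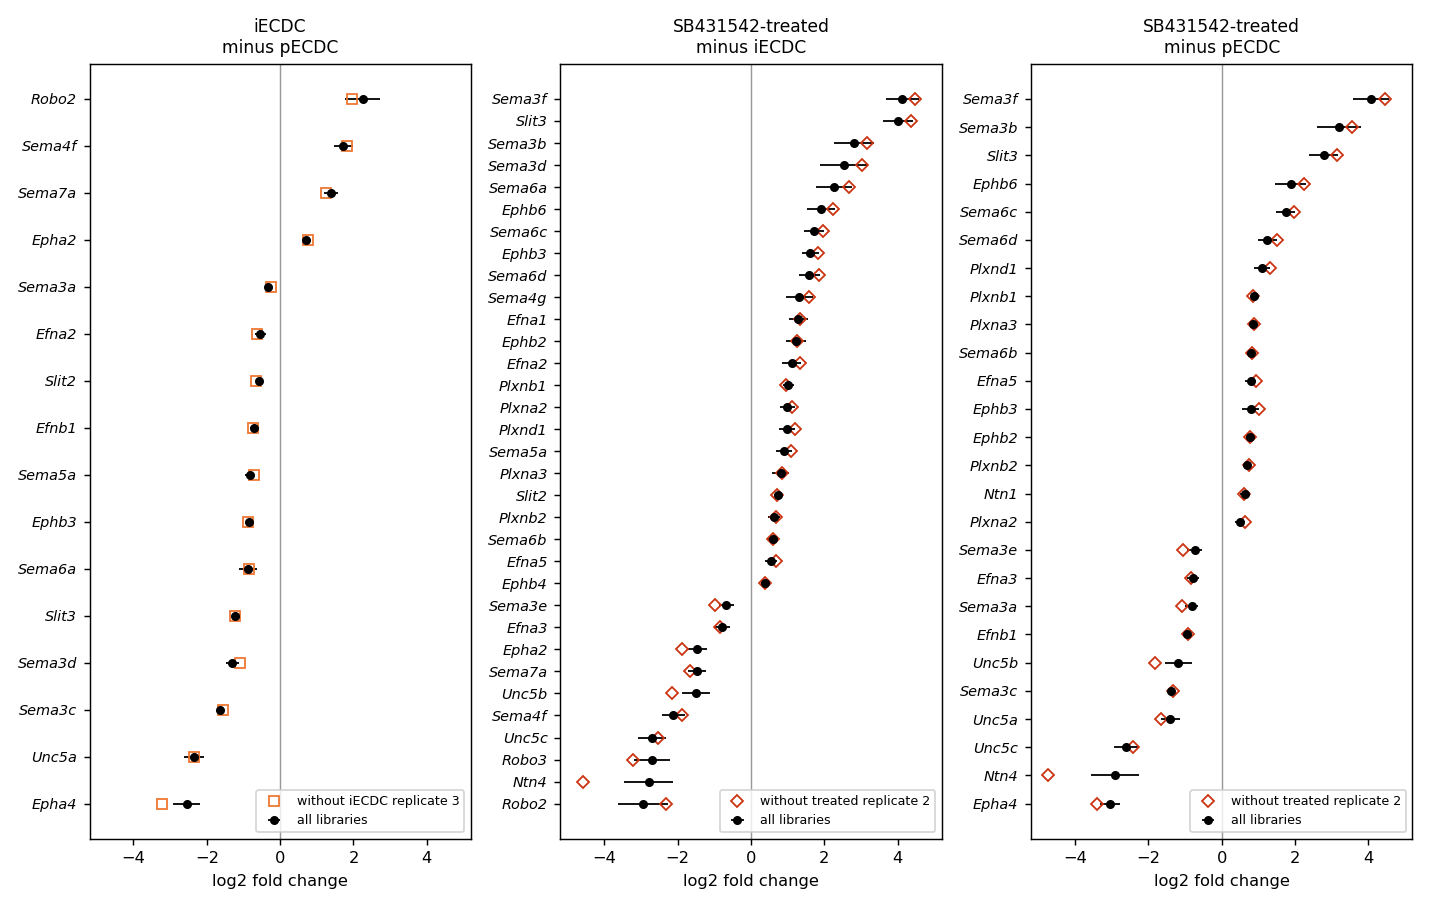
log2 fold changes of the axon guidance genes called in each of the 3 comparisons (filled circles with SE bars, all libraries), with the values without iECDC replicate 3 (orange squares, left) or without treated replicate 2 (red diamonds, middle and right). Sema3f and Slit3 head the genes higher in treated libraries than in iECDCs, and most red diamonds lie further from 0 than the circles.

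Slit3 (ENSMUSG00000056427, GRCm38 chr11:35121224-35708507, plus strand) had, after Sema3f, the largest log2 fold change of the genes called higher with all libraries. Its counts were 811, 701 and 621 in iECDC libraries and 15493, 5871 and 14441 in treated libraries, or 6.62, 7.03 and 6.66 against 146, 46 and 132 FPKM. Treated library 2 was the lowest of its group and still above every iECDC library. The log2 fold change was 4.01 ± 0.41, adjusted p = 0.000933, and 4.37, adjusted p = 1.59e-08, without treated library 2. Slit2 moved less, with 8.11, 8.46 and 8.12 FPKM in treated libraries, all above the iECDC libraries (0.75 ± 0.11, adjusted p = 0.00311). Slit3 made up 94.7%, 84.4% and 94.2% of the Slit FPKM in treated libraries, compared with 54.6% to 59.6% in iECDCs and 66.4% to 70.0% in pECDCs. These shares depend on gene length. By counts Slit2 was above Slit3 in pECDCs (4685, 3774 and 4053 against 2208, 2024 and 2262). The same held in iECDCs (2300, 2035 and 2150 against 811, 701 and 621), while in treated libraries Slit2 was below (3618, 4526 and 3732).

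The receptors for Slits were low in FPKM throughout. Robo1 had 1.54, 1.46 and 1.43 FPKM in pECDCs, 1.65, 1.84 and 1.6 in iECDCs and 2.07, 1.49 and 1.89 in treated libraries. The treated libraries spanned the iECDC range and no difference passed the test (0.11 ± 0.15, adjusted p = 0.59). Robo2 had 3, 0 and 3 counts in treated libraries, below those of iECDCs (-2.95 ± 0.67, adjusted p = 0.0149). Robo3, a divergent Robo that does not bind Slits with high affinity in mammals, had 19, 10 and 15 counts in iECDCs and 1, 4 and 2 in treated libraries (-2.70 ± 0.49, adjusted p = 0.00671).

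**Figure D4:**
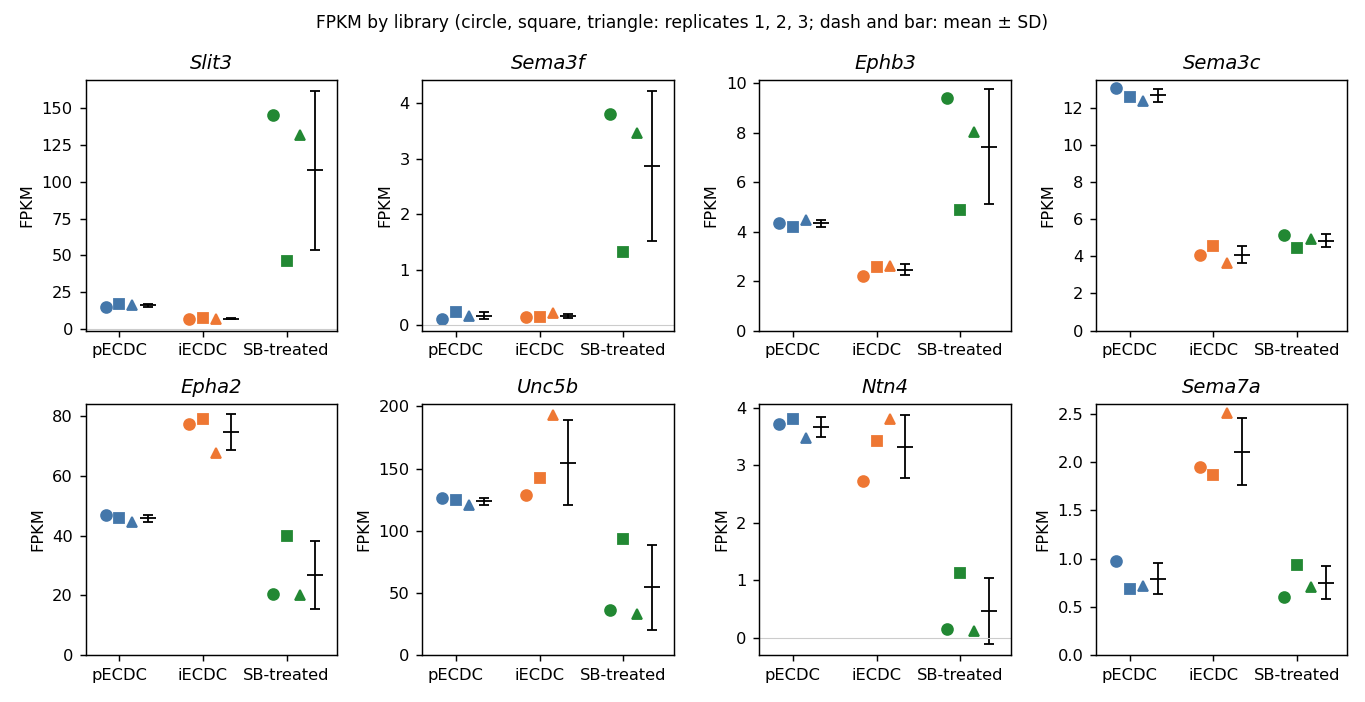
FPKM by library of 8 axon guidance genes on linear axes, with the mean ± SD of the 3 libraries beside each group (circle, square and triangle for replicates 1, 2 and 3). Slit3, Sema3f and Ephb3 are higher and Epha2, Unc5b, Ntn4 and Sema7a lower in treated than in iECDC libraries, and treated replicate 2 (square) lies closest to the iECDC mean of the treated libraries in all 8.

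Of 6 secreted class 3 semaphorins tested, 3 were higher and 1 lower. Sema3f (ENSMUSG00000034684, chr9:107681500-107710475, minus strand), a repellent that acts through neuropilin 2, had 0.11, 0.232 and 0.173 FPKM in pECDCs, 0.143, 0.14 and 0.213 in iECDCs and 3.81, 1.32 and 3.47 in treated libraries. It went from near absence to a clear level in all 3 treated libraries (4.13 ± 0.46, adjusted p = 0.00117, and 4.47, adjusted p = 6e-07, without treated library 2). Sema3d had 7.82, 1.04 and 7.39 FPKM in treated libraries. Libraries 1 and 3 were far above the iECDCs, but library 2 fell inside the iECDC range (2.54 ± 0.65, adjusted p = 0.0226, and 3.02, adjusted p = 3.8e-06, without it). Sema3b, still rare, went from 3, 4 and 3 to 26, 14 and 37 counts (2.81 ± 0.55, adjusted p = 0.00863). Sema3e went down, with 4.5, 7.95 and 4.66 FPKM in treated libraries, all below the iECDCs (-0.67 ± 0.21, adjusted p = 0.0442).

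Sema3a and Sema3c were not called here. Sema3a had 3.75, 6.22 and 4.01 FPKM in treated libraries, where library 2 lay within the iECDC range (-0.49 ± 0.20, adjusted p = 0.0875), and it was called lower without library 2 (-0.76, adjusted p = 0.000602). Sema3c had 5.13, 4.45 and 4.91 FPKM, overlapping the iECDC libraries (0.25 ± 0.12, adjusted p = 0.154). The class 3 sum was 25.4, 21.2 and 24.9 FPKM, led by Sema3d in treated libraries 1 and 3 and by Sema3e in library 2.

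All 4 class 6 semaphorins, transmembrane ligands of A plexins, were higher in treated libraries. Sema6d, which acts in cardiac chamber formation, had 2.12, 2.18 and 2.13 FPKM in pECDCs, 1.84, 1.98 and 1.25 in iECDCs and 6.11, 3.01 and 6.02 in treated libraries (1.59 ± 0.29, adjusted p = 0.00685). Sema6c had 0.515, 0.592 and 0.527, then 0.451, 0.605 and 0.603, then 2.2, 1.19 and 2.04 FPKM in the same order of groups (1.72 ± 0.27, adjusted p = 0.00395). Sema6b had 4.25, 5.1 and 5.15 FPKM in pECDCs, 6.12, 6.39 and 4.23 in iECDCs and 8.26, 8.22 and 8.76 in treated libraries (0.60 ± 0.16, adjusted p = 0.0276). In none of these 3 did a treated library overlap an iECDC library. Sema6a had 117, 37 and 118 counts in treated libraries, where library 2 was the lowest (2.27 ± 0.50, adjusted p = 0.0133).

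Of the other membrane semaphorins, Sema5a had 4.93, 3.13 and 4.85 FPKM in treated libraries, all above the iECDCs (0.90 ± 0.21, adjusted p = 0.0153). Sema4g had 0.795, 0.773 and 0.721 FPKM in pECDCs, 0.569, 0.499 and 0.28 in iECDCs and 1.39, 0.644 and 1.35 in treated libraries (1.32 ± 0.37, adjusted p = 0.0315). Sema4c and Sema4b, ligands of B plexins, were at 7, 6.42 and 6.89 and 5.54, 3.76 and 4.47 FPKM in treated libraries and were not called (adjusted p = 0.0717 and 0.0513), but both were called higher without treated library 2 (0.40, adjusted p = 0.0307, and 0.67, adjusted p = 0.00582). Sema7a and Sema4f, both higher in iECDCs than in pECDCs, are read here against the same iECDC libraries. Sema7a had 0.605, 0.937 and 0.705 FPKM in treated libraries, all below the iECDCs (-1.47 ± 0.23, adjusted p = 0.00406). Sema4f had 21, 13 and 19 counts, likewise below (-2.12 ± 0.31, adjusted p = 0.00314).

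Of the netrins and Unc5 receptors tested (Ntn1, Ntn4, Unc5b and Unc5c), 3 were lower in treated libraries and none was higher. Ntn4 (ENSMUSG00000020019, chr10:93640681-93747207, plus strand), a netrin of basement membranes that binds laminin, had 3.73, 3.81 and 3.48 FPKM in pECDCs, 2.73, 3.43 and 3.81 in iECDCs and 0.152, 1.12 and 0.118 in treated libraries. In counts the treated libraries had 10, 88 and 8, so that library 2 held most of what was left (-2.78 ± 0.67, adjusted p = 0.0175, and -4.59, adjusted p = 3.1e-06, without library 2). Ntn1, the founding netrin, had 76, 81 and 125 counts in iECDCs and 113, 136 and 106 in treated libraries, with overlap (0.18 ± 0.28, adjusted p = 0.645). Unc5b (ENSMUSG00000020099, chr10:60762593-60831581, minus strand) had 36.1, 93.4 and 33.3 FPKM in treated libraries. All 3 lay below all iECDC libraries, library 2 least so (-1.50 ± 0.39, adjusted p = 0.0224, and -2.15, adjusted p = 1.72e-05, without it). Unc5c had 52, 68 and 49 counts in iECDCs and 6, 8 and 14 in treated libraries, where library 2 was as low as the others (-2.70 ± 0.37, adjusted p = 0.00244).

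The EphB receptors were higher and the main EphA receptor lower in treated libraries. Ephb3 (ENSMUSG00000005958, chr16:21204755-21223305, plus strand) had 9.39, 4.86 and 8.03 FPKM, above every iECDC library (1.61 ± 0.23, adjusted p = 0.00284). Ephb6, a receptor without kinase activity, had 0.8, 1.38 and 1.15 FPKM in pECDCs, 0.945, 1.16 and 1.16 in iECDCs and 5.8, 1.87 and 4.44 in treated libraries, without overlap between the last 2 groups (1.90 ± 0.38, adjusted p = 0.00958). Ephb2 had 0.679, 0.641 and 0.72, 0.405, 0.338 and 0.733 and 1.13, 1.11 and 1.19 FPKM in the same order (1.24 ± 0.27, adjusted p = 0.0126). Ephb4, the most abundant, moved least, to 23, 21.7 and 22.8 FPKM (0.37 ± 0.09, adjusted p = 0.0215). Epha2 (ENSMUSG00000006445, chr4:141301240-141329384, plus strand) had 20.3, 39.9 and 20.1 FPKM in treated libraries, all below the iECDCs and with library 2 the highest (-1.47 ± 0.26, adjusted p = 0.00616, and -1.88, adjusted p = 2.15e-06, without it). Epha7 had 0.858, 0.935 and 0.888, 0.742, 0.8 and 0.395 and 1.98, 0.563 and 2.09 FPKM. Treated library 2 lay among the iECDCs, so the call appeared only without it (1.26 ± 0.48, adjusted p = 0.0772, against 1.65, adjusted p = 0.000485).

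A ephrins differed among themselves. Efna1, a ligand of Epha2, had 1.6, 1.59 and 2.53 FPKM in pECDCs, 1, 1.56 and 0.96 in iECDCs and 2.59, 2.62 and 3.33 in treated libraries (1.29 ± 0.26, adjusted p = 0.00949). Efna2 had 4.66, 2.74 and 4.93 FPKM in treated libraries (1.11 ± 0.26, adjusted p = 0.0154). Efna5, which also binds Ephb2, had 4.19, 4.41 and 4.15, 4.98, 5.66 and 4.54 and 8.19, 5.77 and 7.96 FPKM in the 3 groups (0.54 ± 0.17, adjusted p = 0.041). These treated libraries lay above all iECDC libraries for each of the 3 genes. Efna3 was lower, with 2.6, 2.64 and 2.76 FPKM in pECDCs, 2.85, 2.35 and 2.78 in iECDCs and 1.24, 1.66 and 1.71 in treated libraries (-0.78 ± 0.20, adjusted p = 0.0234). Efna4, the leading A ephrin of pECDCs, was at 6.2, 3.92 and 3.5 FPKM in iECDCs and 6.81, 7.14 and 7.41 in treated libraries and was not called (0.65 ± 0.23, adjusted p = 0.0605), but it was called higher without treated library 2 (0.64, adjusted p = 0.0467) or without iECDC library 1. No B ephrin was called, with Efnb2 at 30.8, 30.8 and 30.5 FPKM in treated libraries (-0.13 ± 0.10, adjusted p = 0.324).

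Plexins, the semaphorin receptors, were higher in 5 of 7 tested and lower in none. Plxnb2 (ENSMUSG00000036606, chr15:89155549-89180788, minus strand) had 131, 110.4 and 118 FPKM in treated libraries, above every iECDC library (0.63 ± 0.16, adjusted p = 0.0197). Plxnb1, a receptor of Sema4d, had 2.48, 2.68 and 2.24 FPKM in pECDCs, 1.87, 2.21 and 2.71 in iECDCs and 4.41, 4.84 and 4.37 in treated libraries (1.02 ± 0.15, adjusted p = 0.00278). Plxnd1, the vascular plexin that binds Sema3e, had 3.59, 3.92 and 3.87, 3.76, 4.13 and 4.47 and 9.86, 5.37 and 8.85 FPKM (0.98 ± 0.21, adjusted p = 0.0129). Plxna3 had 2.53, 2.75 and 2.61, 2.23, 1.95 and 3.92 and 4.94, 4.5 and 4.61 FPKM, and iECDC library 3 came close to the treated libraries (0.81 ± 0.24, adjusted p = 0.0357). Plxna2 had 0.776, 0.749 and 0.738, 0.453, 0.684 and 0.485 and 1.2, 0.869 and 1.12 FPKM (0.99 ± 0.20, adjusted p = 0.0105). Plxna1 had 45.9, 51.9 and 65.2 FPKM in iECDCs and 40.5, 56.6 and 39.3 in treated libraries, with overlap (-0.25 ± 0.19, adjusted p = 0.34). Its share of the plexin sum was 37.6% to 38.8% in iECDCs and 21.1%, 31.0% and 22.2% in treated libraries, and without treated library 2 it was called lower (-0.44, adjusted p = 0.0288).

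Of the 33 calls, 13 held whichever of the 6 libraries was left out, namely Slit3, Slit2, Sema3f, Sema3b, Sema6c, Sema6d, Sema7a, Sema4f, Ephb3, Epha2, Plxnb1, Unc5c and Robo3. The other 20 were lost without at least 1 library, with the same direction in each fit. Unc5b, Sema3d, Sema3e, Sema4g, Efna3 and Efna5 passed only without treated library 2 (log2 fold changes over the 6 fits of -2.15 to -1.24, 2.18 to 3.02, -0.99 to -0.52, 1.07 to 1.59, -0.87 to -0.65 and 0.45 to 0.68, highest adjusted p of 0.0798, 0.0811, 0.152, 0.109, 0.0965 and 0.146). Ephb4, Efna2, Plxna3 and Plxnb2 were lost without iECDC library 1 or 2 or treated library 1 or 3 (0.33 to 0.39, 0.96 to 1.33, 0.62 to 1.16 and 0.53 to 0.77, highest adjusted p of 0.1, 0.069, 0.133 and 0.0949). Ntn4 was lost without any iECDC library or treated library 1, Sema5a without iECDC library 1 or 3 or treated library 1 or 3, and Sema6b without iECDC library 1 or treated library 1 or 3 (-4.59 to -2.33, 0.76 to 1.08 and 0.42 to 0.70, highest adjusted p of 0.058, 0.067 and 0.0882). Plxnd1 and Sema6a were lost without iECDC library 1 or 2 (0.80 to 1.19 and 2.001 to 2.67, highest adjusted p of 0.0626 and 0.0565), Robo2 without iECDC library 2 (-3.38 to -2.32, 0.0501), and Ephb2, Ephb6, Efna1 and Plxna2 without iECDC library 1 (1.02 to 1.61, 1.55 to 2.25, 1.15 to 1.54 and 0.87 to 1.19, highest adjusted p of 0.0623, 0.0502, 0.0511 and 0.0526).

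The third comparison sets treated cells against pECDCs, and it shares libraries with both others. Of 49 axon guidance genes tested, 16 were higher and 10 lower in treated libraries (edgeR, adjusted p under 0.05), or 53.1%, where 34.8% of all 14015 genes tested were called, 17.9% higher and 17% lower. The groups did not overlap for 32 of the 49, against 51.5% of all genes. The median log2 fold change was 0.36 over the 49 genes and 0.0068 over all genes. Without treated library 2, 28 of 51 were higher and 13 lower, with 64.1% of all genes called.

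Higher than in primary cells were Slit3 (2.78 ± 0.41, adjusted p = 0.0031), Sema3f (4.08 ± 0.49, adjusted p = 0.00157), Sema6c (1.74 ± 0.25, adjusted p = 0.00298), Sema6d (1.24 ± 0.26, adjusted p = 0.0108), Sema6b (0.81 ± 0.10, adjusted p = 0.00167) and Sema3b (3.19 ± 0.60, adjusted p = 0.00748). Every treated library lay above every pECDC library for these 6 ligands. The plexins called were Plxnb2 (0.69 ± 0.09, adjusted p = 0.0019), Plxnb1 (0.89 ± 0.09, adjusted p = 0.000975), Plxnd1 (1.09 ± 0.21, adjusted p = 0.00882), Plxna3 (0.84 ± 0.08, adjusted p = 0.000759) and Plxna2 (0.50 ± 0.14, adjusted p = 0.0283). EphB receptors gave Ephb6 (1.88 ± 0.42, adjusted p = 0.0142), Ephb2 (0.76 ± 0.10, adjusted p = 0.0022) and Ephb3 (0.79 ± 0.22, adjusted p = 0.0325). Efna5 (0.79 ± 0.15, adjusted p = 0.00693) and Ntn1 (0.63 ± 0.13, adjusted p = 0.0109) completed the 16, the last with 101, 84 and 91 counts in pECDCs.

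Lower than in primary cells were the ligands Ntn4 (-2.92 ± 0.66, adjusted p = 0.0141), Sema3c (-1.38 ± 0.08, adjusted p = 0.000108), Sema3a (-0.82 ± 0.18, adjusted p = 0.0129), Sema3e (-0.74 ± 0.21, adjusted p = 0.0309), Efnb1 (-0.94 ± 0.09, adjusted p = 0.000804) and Efna3 (-0.78 ± 0.16, adjusted p = 0.0105). Efnb1 stood at 4.34, 3.93 and 4.09 FPKM in treated libraries, below all pECDC libraries. The receptors were Epha4 (-3.05 ± 0.28, adjusted p = 0.000623), Unc5c (-2.61 ± 0.34, adjusted p = 0.00203), Unc5a (-1.40 ± 0.26, adjusted p = 0.00722) and Unc5b (-1.18 ± 0.38, adjusted p = 0.0467). Epha4 had 9, 18 and 8 counts in treated libraries and Unc5a 12, 20 and 10, so that for both the low level of the iECDCs and of the treated cells stood apart from the pECDCs.

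Slit2, Sema5a, Sema7a and Sema4f were not called between treated cells and pECDCs, which does not show that their levels were alike. Slit2 differed by 0.19 ± 0.07, adjusted p = 0.0752, Sema5a by 0.08 ± 0.17, adjusted p = 0.749, Sema7a by -0.07 ± 0.24, adjusted p = 0.842 and Sema4f by -0.39 ± 0.33, adjusted p = 0.391. Without treated library 2, Slit2 (0.17, adjusted p = 0.00496) and Sema5a (0.26, adjusted p = 0.00013) were called higher. For Epha2, treated libraries 1, 2 and 3 all lay below the pECDC libraries and the difference missed the threshold (-0.77 ± 0.26, adjusted p = 0.0545), but it was called without treated library 2 (-1.17, adjusted p = 1.35e-13). Sema3d was at 7.82, 1.04 and 7.39 FPKM, with library 2 below and the others above the pECDCs (1.24 ± 0.62, adjusted p = 0.164, and 1.73, adjusted p = 4.25e-14, without library 2).

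Of the 26 calls, 16 held whichever library was left out. Unc5b, Ephb3, Plxna2 and Sema3e passed only without treated library 2 and were lost without any other (-1.83 to -0.93, 0.58 to 1.02, 0.40 to 0.63 and -1.06 to -0.60 over the 6 fits, highest adjusted p of 0.135, 0.108, 0.101 and 0.0942). Ntn4 and Sema3a were lost without any one pECDC library (-4.74 to -2.48 and -1.09 to -0.69, up to 0.0545 and 0.0527), Ephb6 and Ntn1 without pECDC library 1 or 3 (1.52 to 2.23 and 0.59 to 0.67, up to 0.0632 and 0.0578), and Efna3 and Sema6d without pECDC library 3 (-0.87 to -0.66 and 1.08 to 1.51, up to 0.0518 and 0.0501). Without treated library 2, 15 further genes were called, where 64.1% of all genes were. Beside Epha2, Epha3, Sema3d, Slit2 and Sema5a these were Epha7 (1.20, adjusted p = 2.05e-09), Ephb4 (0.20, adjusted p = 0.000568), Robo1 (0.43, adjusted p = 4.26e-05), Efna1 (0.64, adjusted p = 0.00997), Efna2 (0.80, adjusted p = 1.34e-05), Sema4b (0.34, adjusted p = 0.00218), Sema4g (0.85, adjusted p = 4.43e-05) and Sema6a (1.80, adjusted p = 6.32e-08), which were higher in treated libraries. Plxna1 (-0.43, adjusted p = 4.95e-07) and Robo3 (-2.43, adjusted p = 0.00897) were lower. Robo3 and Efna1 were also called without pECDC library 2 and pECDC library 3, respectively.

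Co-receptors, further ligands and cytoplasmic transducers of the same pathways were read from a list of 72 partner genes. Between iECDCs and pECDCs 8 of 58 tested were higher and 10 lower, between treated cells and iECDCs 12 of 58 were higher and 12 lower, and between treated cells and pECDCs 13 of 60 were higher and 16 lower, beside 16.4%, 30% and 34.8% of all genes called. Without treated library 2 the last 2 pairs of counts were 21 and 17, and 26 and 27, beside 50.2% and 64.1% of all genes called. Dscam, a netrin co-receptor and adhesion molecule, had 0.00927, 0.0171 and 0.00487 FPKM in pECDCs, 0.141, 0.242 and 0.34 in iECDCs and 2.14, 0.648 and 1.92 in treated libraries. It was the partner with the largest fold changes (4.44 ± 0.53, adjusted p = 0.000767 in iECDCs against pECDCs, and 2.73 ± 0.49, adjusted p = 0.00644 in treated cells against iECDCs). Cxcl12, a chemokine that also guides axons, had 100.2, 102 and 149 FPKM in iECDCs and 316, 159 and 319 in treated libraries (1.19 ± 0.29, adjusted p = 0.0181). Srgap1, the GTPase-activating protein that binds Robo receptors, had 0.9, 0.966 and 0.584 and 3.25, 1.52 and 3.31 FPKM (1.73 ± 0.32, adjusted p = 0.00755). Itga3, an integrin subunit that binds laminins, had 3.47, 3.55 and 3.48 and 9.52, 6.95 and 8.5 FPKM (1.26 ± 0.14, adjusted p = 0.0011).

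Rnd1, a cytoplasmic protein that binds plexins, had 16.7, 17 and 16 FPKM in pECDCs, 36.7, 36.1 and 40 in iECDCs and 11.1, 25.4 and 11.5 in treated libraries. It was higher in iECDCs than in pECDCs (1.17 ± 0.07, adjusted p = 9.87e-06) and lower in treated libraries than in iECDCs (-1.22 ± 0.29, adjusted p = 0.018), with treated library 2 between the groups. Pak1, a kinase downstream of Rac, had 22, 23.9 and 19.4 FPKM in iECDCs and 9.69, 11.5 and 9.19 in treated libraries (-1.09 ± 0.13, adjusted p = 0.00138). Chn1, a Rac GTPase-activating protein downstream of Epha4, had 1.02, 1.06 and 1.12 and 0.385, 0.5 and 0.383 FPKM (-1.32 ± 0.20, adjusted p = 0.00313). Flrt2, a ligand of Unc5 receptors, had 10.1, 10.9 and 9.85 FPKM in pECDCs and 5.25, 3.93 and 5.35 in treated libraries (-1.08 ± 0.13, adjusted p = 0.00155). Ntng2, a membrane-bound netrin relative, was called higher in treated libraries (0.31, 0.259 and 0.228 against 1.3, 0.751 and 0.971 FPKM, 1.91 ± 0.29, adjusted p = 0.00362). Of the semaphorin co-receptors, Nrp1 had 18.9, 19.3 and 18.2, 20.7, 22.8 and 19.4 and 31, 23.8 and 30.5 FPKM in the 3 groups, with treated library 2 nearest to the iECDCs (0.45 ± 0.14, adjusted p = 0.0413).

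Reads of overlapping genes could be shared, since the sources used here do not give the strand setting of the counting. Epha1 overlaps Zyx, which reached 12739 counts in a library, on the opposite strand, so Epha1 is uncertain and no value is given.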

How the data were processed

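RNA sequencing libraries of pECDCs, iECDCs and SB431542-treated cells were grouped by their labels, 3 per group. The deposited table by the authors holds raw read counts for each gene and FPKM values. For these 65 genes the FPKM was the count over gene length and a constant of the library (largest deviation 5.64e-06%). Per the labels' processing notes the tools were TopHat2 2.0.9 and Bowtie2 2.0.6 with mm9. However, 53548 of 54495 shared gene identifiers have GRCm38 coordinates of GENCODE M21, all 65 genes included, so GRCm38 is named here. The counting program and its strand setting are not given in the sources used here. The labels name the TruSeq kit, whereas the study's methods name other kits. The table's own fold changes and p-values from the authors' comparisons, and their group means, were not used.

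The count test was that of edgeR 4.0.16 under R 4.3.3 (TMM, filterByExpr with a minimum count of 10 and total of 15, quasi-likelihood test, Benjamini-Hochberg over all genes tested, libraries of the compared groups only). Fold changes are edgeR log2 values ± SE, and a call is an adjusted p under 0.05. A filter that low genes pass only through their higher group favours calls among them. The common biological coefficient of variation was 0.0919, 0.171 and 0.144 in the 3 comparisons. Tests were run on simulated counts first. Alternatives were DESeq2 1.42.0, RLE factors, other filters, all 9 libraries in a fit, a replicate block, a log2 fold change of at least 1, leaving out each library, and limma 3.58.1 on log2(FPKM + 1) and log2(FPKM + 0.1). Python 3.11.15 (matplotlib 3.10.9, scipy 1.17.1, pandas 2.3.3) served for tables and plots.

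The genes, the partner and marker lists and the tests were chosen with earlier results of these data known. Values in every library are given for genes called in a comparison with a mean FPKM of at least 1 in a group and for the leading gene of each family, counts for called genes below that level, and, of the partners, for those called with a log2 fold change of at least 1 and a mean FPKM of at least 1. Nrp1 was added after its values were seen. Depth was 16568306 to 23951392 counts per library.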

Additional observations from a re-analysis of the deposited data

How the results depend on the processing

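No gene called with all libraries changed direction under any alternative. Between iECDCs and pECDCs, genes lower were 21 without a filter on low counts, where 12.3% of all genes were called. With all 9 libraries in the fit 7 were lower and 2 higher, and 6 partners were called. In that fit with all 9 libraries 4.72% of all genes were called. Calls lost there were Slit3 (adjusted p = 0.0628), Epha2 (adjusted p = 0.124), Sema3d (adjusted p = 0.241), Sema3a, Efna2, Sema6a and Robo2. A log2 fold change of at least 1 left 5 lower and 5 partners. Between treated cells and iECDCs, 6 were lower with at least 10 counts in every library, where 29.7% of all genes were called. A log2 fold change of at least 1 left 14 higher and 11 partners there. Between treated cells and pECDCs it left 7 higher, 6 lower and 10 partners. The share of all genes called at a log2 fold change of at least 1 is not given. Leaving out 1 library gave, for iECDCs against pECDCs, 3 to 8 higher, 9 to 21 lower and 7 to 35 partners (the highest without iECDC library 3, the lowest partner count without any one pECDC library), where 7.39% to 31.7% of all genes were called. For treated cells against iECDCs it gave 9 to 28 higher, 5 to 12 lower and 14 to 38 partners, beside 12.3% to 50.2% of all genes, and for treated cells against pECDCs 12 to 28 higher, 5 to 13 lower and 21 to 53 partners, beside 17.1% to 64.1%, each highest without treated library 2. A fit without a library has fewer samples. Replicate numbers were not taken to pair libraries, since correlations of same-numbered deviations ran from -0.207 to 0.0329. With a replicate block 1791, 3038 and 3886 genes were called in place of 2258, 4061 and 4881, and for the axon guidance genes 4, 21 and 16 were higher and 10, 9 and 11 lower, with 12, 20 and 26 partners. Calls lost under the block were Efna2 and Sema6a in the first comparison and Ephb4, Efna5 and Efna3 in the second. The causes were not tested. Depth limits genes with few counts, and 14 of the 65 missed the filter on low counts in every comparison with all libraries.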
